A study of Homo sapiens with 6 samples.

Results

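A set of 9 genes was followed here, the G1 cyclins and the kinases that carry them through the first part of the cell cycle. They are CCND1, CCND2 and CCND3, CCNE1 and CCNE2, the kinase genes CDK4, CDK6 and CDK2, and the phosphatase gene CDC25A. They were taken by name from a table of 67130 genes, leaving out alternative contigs, and all 9 have 1 entry each. The samples were hTERT-RPE1-TOShOFD1 cells, a human retinal pigment epithelial line immortalised with telomerase and infected with a lentivirus whose short hairpin RNA (shRNA), aimed at OFD1, is under Tet-On control and so made when doxycycline is added. OFD1 is a protein of centrioles and centriolar satellites. The control group (3 samples, labelled WT) received no doxycycline, and the shOFD1 group (3 samples, labelled OFD1 knockdown) received 200 ng/mL for 72 h. Both groups carry the hairpin cassette, all samples come from 1 infected and selected line, and none received doxycycline without the hairpin, so the agent and the knockdown cannot be told apart.

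In cells that leave quiescence, growth signals raise D-type cyclins, which bind CDK4 or CDK6 and begin to phosphorylate the retinoblastoma protein RB. E-type cyclins then bind CDK2, complete that phosphorylation and start DNA replication, and CDC25A removes the inhibitory phosphates from these kinases. CCNE1, CCNE2 and CDC25A are textbook targets of the E2F transcription factors that RB restrains, which links the early and the late part of the pathway. The comparison asked how the mRNA of each part stood in cells depleted of OFD1, since the study dealt with progression through the cell cycle.

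The stretches of promoter below are those of CDC25A and CCNE1, members that E2F factors are known to act on and that were both lower in shOFD1 cells, and of CDK6, the kinase with the largest fall. They come from RefSeq (GRCh38.p14). Windows of 5 of the 9 members were searched (CCND3, CDK4, CDK6, CCNE1 and CDC25A). Those of CCND1, CCND2, CCNE2 and CDK2 were not searched, so whether CCNE2 holds an E2F word was not tested. Each is the 250 bases before a transcription start, on the strand of the gene, and capitals mark E2F words and GC boxes.
CDC25A, chr3:48188418-48188667, minus strand: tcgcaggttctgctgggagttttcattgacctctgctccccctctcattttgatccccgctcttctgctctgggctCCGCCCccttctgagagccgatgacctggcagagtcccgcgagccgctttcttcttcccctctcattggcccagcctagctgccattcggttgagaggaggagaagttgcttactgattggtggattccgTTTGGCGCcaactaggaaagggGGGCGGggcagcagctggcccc
CCNE1, chr19:29811741-29811990, plus strand: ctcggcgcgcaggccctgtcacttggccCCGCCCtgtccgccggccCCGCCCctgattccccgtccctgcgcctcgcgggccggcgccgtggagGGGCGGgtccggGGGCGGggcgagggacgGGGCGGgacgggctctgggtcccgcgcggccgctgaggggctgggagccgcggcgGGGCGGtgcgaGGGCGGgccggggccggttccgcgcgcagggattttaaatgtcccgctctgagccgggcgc
CDK6, chr7:92836574-92836823, minus strand: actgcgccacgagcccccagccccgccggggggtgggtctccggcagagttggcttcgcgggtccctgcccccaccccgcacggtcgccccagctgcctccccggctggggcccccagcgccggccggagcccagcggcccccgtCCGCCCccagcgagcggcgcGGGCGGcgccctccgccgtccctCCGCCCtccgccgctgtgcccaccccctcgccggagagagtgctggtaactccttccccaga

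The E2F words searched were TTTCCCGC, TTTCGCGC, TTTGCCGC and TTTGGCGC, on both strands, in windows from 250 bases before to 50 bases after each start. Of the 5 members searched, CDC25A was the one with such a word, TTTGGCGC, whose first base lies at -44. Of all 35116 promoter windows of the same length, 3.31% hold such a word. The GC box, GGGCGG on both strands and with no base shared with the E2F word of CDC25A, occurred 2 times in the window of CDC25A, 7 times in that of CCNE1 and 3 times in that of CDK4. The CDK6 window shown held 3 and that of its other listed start held none, and the 3 windows of CCND3 held 5, 4 and none. It was present in 45.0% of all windows. These matches describe letters and not bound sites.

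Values are FPKM, that is fragment numbers divided by the length of the transcript and by the size of the library, so levels of different genes can be set side by side per length. Sums of FPKM ran from 408302 to 414547 in control and from 433262 to 493510 in shOFD1 samples, with the highest in shOFD1 replicate 2. The share of FPKM on mitochondrial genes was 8.66% to 13.8% in control and 15.6% to 19.3% in shOFD1 samples. The part of the mitochondrial share in the results was not tested, and results with equal totals are given below. OFD1 itself had 3.34, 3.62 and 3.44 FPKM in control and 0.795, 0.763 and 1.43 FPKM in shOFD1 replicates 1 to 3, a mean of 28.7% of control. Of the epithelial markers, the keratin genes KRT8 and KRT18 were well expressed (140 to 218 and 111 to 189 FPKM) while the cadherin CDH1 and EPCAM stayed under 0.05 FPKM. Among 8 pigment epithelium markers, MITF (5.06 to 7.75 FPKM) and OTX2 (1.56 to 2.10 FPKM) were present, whereas RPE65, RLBP1, TYR and TYRP1 stayed under 0.21 FPKM and PMEL ran from 0.258 to 0.627 FPKM. BEST1 had 4.33 FPKM in shOFD1 replicate 2 and at most 0.0475 FPKM in the other 5 samples. That replicate stood apart from its group, with a correlation of log2 values of 0.97 with each of the other shOFD1 samples against 0.98 between those, and without it 7 members were lower rather than 6. CRX, PDE6B and RCVRN of the neural retina and the endothelial CDH5 and T-cell CD3E were at 0. The highest marker was NRL (0.0978 to 0.286 FPKM) for neural retina and KDR (0.354 to 0.686 FPKM) for endothelium. Among immune markers it was CD68, which was well expressed at 31.4 to 40.7 FPKM. The other immune markers went the other way, with PTPRC at 0.0383 to 0.148 FPKM and CD14 at 0.0517 to 0.133 FPKM beside CD3E. The samples are bulk RNA, in which fewer cells in a phase and less RNA per cell cannot be told apart.

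Of the 8 members with a mean of at least 1 FPKM, 6 fell in shOFD1 cells and none rose (limma on log2(FPKM + 0.1), Benjamini-Hochberg adjusted p under 0.05 over 12025 genes). At an unadjusted p under 0.05 CCND3 was lower as well, and still none was higher. The adjusted rule called 11.9% of all genes lower and 5.07% higher. The median log2 fold change was -0.75 over these 8 members and -0.03 over all genes tested. The 3 control values and the 3 shOFD1 values did not overlap in 7 of the 8, the exception being CDK4, and in 36.1% of all genes. The proportion of lower to higher genes depended on scaling. It was 1429 to 610 as deposited, 1990 to 272 with equal totals (TPM) and 1313 to 1085 after quantile normalisation. Under these scalings 7 and 6 members were lower, and none was higher. A fold change on this scale understates the change of low genes.

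**Figure D1:**
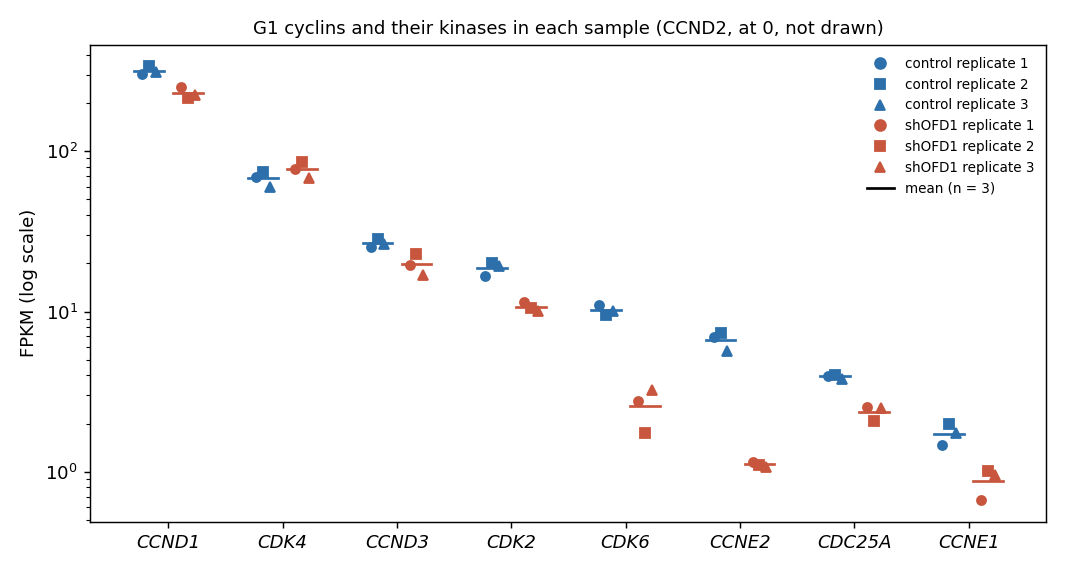
FPKM of the 8 tested members in each sample on a log axis. Control samples are in blue and shOFD1 samples in red, with a symbol for each replicate and bars at the means of 3. The groups are apart in every gene drawn except CDK4, and the widest gap is that of CCNE2, from 5.71 FPKM in the lowest control to 1.16 FPKM in the highest shOFD1 sample.

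The D-type cyclins are the first of the set to respond to growth signals. CCND1 (ENSG00000110092, GRCh38 chromosome 11 from 69641156 to 69654474, plus strand) was the most abundant member, with 305, 338 and 312 FPKM in control and 250, 216 and 224 FPKM in shOFD1 replicates. Every shOFD1 value lay below every control value. Its mean fell from 318 ± 17.5 to 230 ± 17.6 FPKM (mean ± SD, n = 3), a log2 difference of -0.47 (SE 0.129, adjusted p by limma = 0.029). The call was lost when any one sample except shOFD1 replicate 2 was left out, with a limma adjusted p up to 0.104 without control replicate 1. The log2 fold change itself stayed between -0.53 and -0.43 as each sample was left out.

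CCND3 (ENSG00000112576, chromosome 6 from 41934934 to 42050357, minus strand), the D-type cyclin found in most tissues, had 25.2, 28.4 and 26.2 FPKM in control and 19.5, 22.7 and 16.8 FPKM in shOFD1 replicates. The groups did not overlap, and the shOFD1 samples were more spread than the controls. On the log2 scale the difference was -0.44 (SE 0.141, adjusted p by limma = 0.0528), close in size to that of CCND1 and just outside the threshold. It passed without shOFD1 replicate 2 (-0.55, limma adjusted p = 0.00866), in which CCND3 was highest, and also with TPM scaling (limma adjusted p = 0.00839).

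CCND2 (ENSG00000118971, chromosome 12 from 4269771 to 4305353, plus strand), the third D-type cyclin, was listed at 0 in all 6 samples and was not tested. AC008012.1, a gene on the same strand that overlaps it by 31592 bases, was at 0 as well. Zeros for genes used by every cell were not seen in a check of 77 ribosomal protein genes, where the 2 at 0 were RPL3L and RPL10L, copies with narrow tissue expression. The check did not look at overlaps on the same strand, so it does not settle whether the zeros of CCND2 are real.

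Cyclin D mRNA summed over the family was 330, 366 and 339 FPKM in control and 269, 239 and 241 FPKM in shOFD1 samples. CCND2 entered at its listed 0, so the sum and the CCND1 share describe CCND1 and CCND3 alone. The sum in shOFD1 cells was 72.3% of control, with no overlap (p = 0.1 by two-sided exact permutation, which with 3 samples a group cannot go lower). CCND1 supplied 92.3% ± 0.0634 of it in control and 92.1% ± 1.40 in shOFD1 cells (mean ± SD, n = 3), a difference of -0.20 percentage points (standard error 0.807, exact permutation p = 1). Its sign turned without shOFD1 replicate 2, to 0.60 percentage points.

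CDK4 and CDK6 are the alternative partners of cyclin D, and they went separate ways. CDK6 (ENSG00000105810, chromosome 7 from 92604921 to 92836573, minus strand) had 11.0, 9.45 and 10.1 FPKM in control and 2.77, 1.76 and 3.24 FPKM in shOFD1 replicates. The highest shOFD1 value was well under the lowest control value, and replicate 2 was the lowest of all. The mean fell from 10.2 ± 0.775 to 2.59 ± 0.757 FPKM (mean ± SD, n = 3), or 25.4% of control, a log2 difference of -1.98 (SE 0.208, adjusted p by limma = 0.000105). Left-out samples moved it between -2.16 and -1.73, with the limma adjusted p no higher than 0.00195.

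CDK4 (ENSG00000135446, chromosome 12 from 57747727 to 57756013, minus strand) had 68.8, 73.9 and 60.2 FPKM in control and 77.7, 85.3 and 67.6 FPKM in shOFD1 replicates. The groups overlapped. The log2 fold change was 0.18 with a 95% interval from -0.12 to 0.49 (limma adjusted p = 0.408), and it lay between 0.04 and 0.27 over the 16 alternatives tried. A fall as large as that of CDK6 is outside this interval. CDK4 overlaps TSPAN31 (4.15 FPKM in control and 4.42 FPKM in shOFD1 cells on average) and MARCHF9 (13.4 and 13.3 FPKM) on the opposite strand.

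The ratio of CDK6 to CDK4 within a sample does not change when a sample is scaled by 1 factor. On the log2 scale it was -2.65, -2.97 and -2.57 in control and -4.81, -5.60 and -4.38 in shOFD1 replicates. The means differed by -2.21 (standard error 0.377), with no overlap (p = 0.1 by exact permutation, the lowest value attainable). CDK6 made up 13.2% ± 1.62 of the summed CDK4 and CDK6 mRNA in control and 3.34% ± 1.28 in shOFD1 cells (mean ± SD, n = 3). The sum itself was 79.8, 83.3 and 70.3 FPKM in control and 80.5, 87.1 and 70.9 FPKM in shOFD1 samples, so the groups overlapped (difference 1.66 FPKM, standard error 6.09, exact permutation p = 0.7). That difference turned to -6.60 FPKM with TPM scaling.

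**Figure D2:**
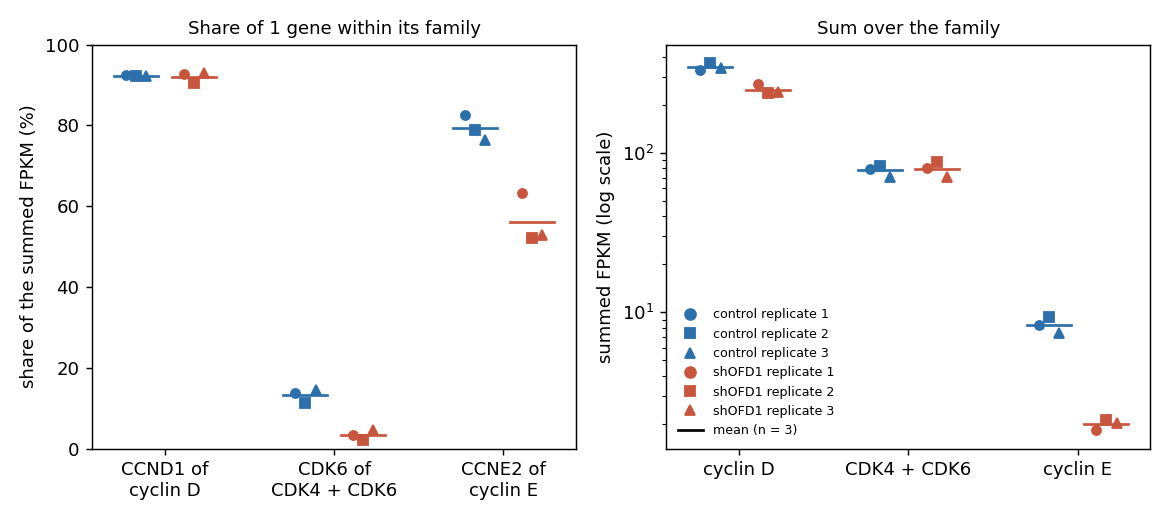
Left, the percentage of a family's summed FPKM that comes from CCND1, CDK6 or CCNE2 in each sample. Right, the summed FPKM of cyclin D, of CDK4 with CDK6, and of cyclin E on a log axis. Blue is control, red is shOFD1, symbols are replicates and bars are means of 3. The CDK6 share drops from between 11.3% and 14.4% to between 2.02% and 4.57% while the sum of both kinases overlaps between groups.

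E-type cyclins activate CDK2 at the entry into S phase. CCNE2 (ENSG00000175305, chromosome 8 from 94879770 to 94896678, minus strand) had 6.92, 7.35 and 5.71 FPKM in control and 1.16, 1.11 and 1.08 FPKM in shOFD1 replicates. The 3 shOFD1 values were nearly the same, at 16.7% of control on average, the lowest share among the members. On the log2 scale the difference was -2.47 (SE 0.18, adjusted p by limma = 1.4e-05) and stayed between -2.58 and -2.40 as each sample was left out. Its ends overlap NDUFAF6 (10.0 FPKM in control and 6.84 FPKM in shOFD1 cells on average) and INTS8 (8.26 and 6.82 FPKM) on the opposite strand, whose reads may be mixed with its own.

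CCNE1 (ENSG00000105173, chromosome 19 from 29811991 to 29824312, plus strand) was the lowest expressed member, with 1.46, 1.98 and 1.76 FPKM in control and 0.668, 1.02 and 0.962 FPKM in shOFD1 replicates. The groups did not overlap, and shOFD1 replicate 1 was the lowest. The mean went from 1.73 ± 0.26 to 0.882 ± 0.187 FPKM (mean ± SD, n = 3), a log2 difference of -0.91 (SE 0.272, adjusted p by limma = 0.0416). The limma adjusted p exceeded the threshold without any one sample other than shOFD1 replicate 2, reaching 0.137 without control replicate 3, and also with median-of-ratios scaling (0.0539), quantile normalisation (0.0681) and no filter on low values (0.124).

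Cyclin E mRNA in sum was 8.38, 9.33 and 7.47 FPKM in control and 1.82, 2.12 and 2.04 FPKM in shOFD1 samples, or 23.8% of control. All shOFD1 sums were below all control sums (p = 0.1 by exact permutation, the lowest value attainable). The log2 ratio of CCNE2 to CCNE1 was 2.24, 1.89 and 1.70 in control and 0.79, 0.13 and 0.16 in shOFD1 replicates, a difference of -1.59 (standard error 0.268, p = 0.1 by exact permutation, the lowest value attainable). CCNE2 thus supplied 79.3% ± 3.07 of cyclin E mRNA in control and 56.1% ± 6.28 in shOFD1 cells (mean ± SD, n = 3). Cyclin D mRNA, with CCND2 at its listed 0, stood at 41.3 ± 3.47 times cyclin E mRNA in control and at 126 ± 18.8 times in shOFD1 cells (mean ± SD, n = 3). The groups did not overlap (p = 0.1 by exact permutation, the lowest value attainable).

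CDK2 (ENSG00000123374, chromosome 12 from 55966781 to 55972789, plus strand), the kinase that cyclin E activates, had 16.7, 19.9 and 19.2 FPKM in control and 11.4, 10.5 and 10.1 FPKM in shOFD1 replicates. The groups were apart with little spread in either. On the log2 scale the difference was -0.79 (SE 0.131, adjusted p by limma = 0.00193), and the limma adjusted p was at most 0.0144 over the 16 alternatives. The fall in CDK2 was smaller than that in cyclin E, so the ratio of cyclin E to CDK2 mRNA was 0.453 ± 0.0582 in control and 0.188 ± 0.0245 in shOFD1 cells (mean ± SD, n = 3). CDK2 lies wholly within the span of PMEL on the opposite strand, a gene with 0.401 FPKM in control and 0.414 FPKM in shOFD1 cells on average.

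CDC25A (ENSG00000164045, chromosome 3 from 48157146 to 48188417, minus strand), whose promoter is shown above with its E2F word, had 3.97, 4.04 and 3.81 FPKM in control and 2.55, 2.09 and 2.49 FPKM in shOFD1 replicates. The controls had an SD of 0.12 FPKM, and no shOFD1 value reached them. On the log2 scale the difference was -0.71 (SE 0.169, adjusted p by limma = 0.015). The limma adjusted p rose to 0.0714, 0.0546 and 0.0578 without control replicate 1, 2 or 3.

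**Figure D3:**
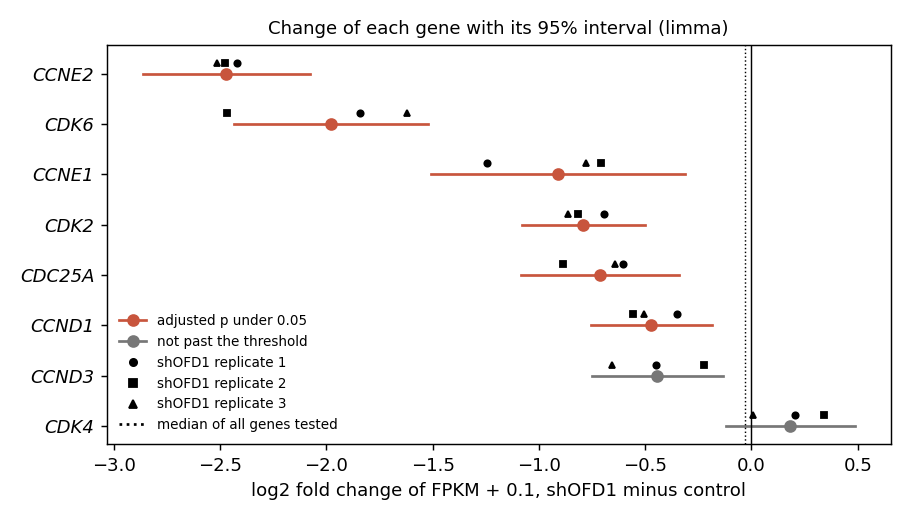
Log2 fold change of FPKM + 0.1, shOFD1 minus control, for the 8 members tested, with 95% intervals from limma. Red marks an adjusted p under 0.05, black symbols are single shOFD1 replicates against the control mean, and the dotted line is the median of all genes tested (-0.03). CCNE2 and CDK6 stand apart from the other members, which lie between -0.91 and 0.18.

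In control cells the order of mean levels was CCND1, CDK4, CCND3, CDK2, CDK6, CCNE2, CDC25A and CCNE1, and no 2 neighbours in this order overlapped in their 3 values. In shOFD1 cells the first 5 places were the same and CDC25A (2.38 FPKM) stood above CCNE2 (1.11 FPKM). There CDK6 and CDC25A overlapped in their values, and the other neighbours did not.

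Across the 6 samples, every tested gene was ranked by Pearson correlation of log2(FPKM + 0.1) with each member, as a description that includes the difference between the groups. CCNE2 was most like ARHGEF6 and MSMO1 (r = 1.00 for both to 2 decimals), and CDK6 most like DIPK2A and MMS22L. CDC25A was most like KNL1, a kinetochore scaffold, and DTL, a substrate receptor of a replication-linked ubiquitin ligase. CDK2 was nearest to KIFBP and FARSB, and CCND1 to PTGFR and POLE3. CCND3 followed ACD and PGP (r = 0.99 for both), CCNE1 followed TXNDC12 (r = 1.00) and HNRNPA3P6 (r = 0.99), and CDK4 followed GLRX and EEF1A1P6 (r = 0.99 for both). The share of tested genes that reached r = 0.95 differed between members, from 0.258% for CDK4 and 0.466% for CCNE1 to 5.45% for CCNE2 and 6.31% for CDC25A.

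The pathway around these members was read through 8 lists with 77 genes, of which 71 were tested. In total 19 were lower and 5 higher (limma adjusted p under 0.05), beside 11.9% and 5.07% of all genes. In the lists given below with no higher gene by limma, there was none at an unadjusted p under 0.05 either, apart from the CDK-activating kinase. The 5 higher genes all missed the threshold with TPM scaling, where the median of all genes moved by -0.14.

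Of 6 tested CIP/KIP and INK4 inhibitor genes, 2 rose, 2 fell and 2 did not pass. CDKN1B (p27) had 31.8, 37.7 and 32.3 FPKM in control and 50.8, 49.9 and 45.0 FPKM in shOFD1 samples, 0.52 higher on the log2 scale (limma adjusted p = 0.0173). The groups were apart, and the limma adjusted p passed the threshold no longer without control replicate 1 (0.105), control replicate 3 (0.0877) or shOFD1 replicate 1 (0.0619). CDKN1A (p21), named here after its value was seen, rose by 0.47 (limma adjusted p = 0.0406), a call lost without any one control sample (limma adjusted p up to 0.155) or without shOFD1 replicate 1 (0.0913), and also with no filter on low values (0.144), without the variance trend (0.0631) and with TPM scaling (0.0727). CDKN2C (p18), an INK4 inhibitor that binds CDK4 and CDK6, went from 20.4 ± 0.202 to 7.70 ± 1.02 FPKM (mean ± SD, n = 3), -1.40 on the log2 scale (limma adjusted p = 6.2e-05). CDKN2D (p19), of the same family, fell by 1.16 (limma adjusted p = 0.00125).

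The RB family proteins are the substrates of cyclin D and cyclin E kinases. RBL1 (p107) fell by 1.66 (limma adjusted p = 0.00118) and RB1 fell by 0.98 (limma adjusted p = 0.00343). RBL2 (p130) stood at -0.44 (limma adjusted p = 0.18), and its lowest value, 3.26 FPKM, was in shOFD1 replicate 2. The list's median was -0.98.

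The CDK-activating kinase, which phosphorylates the activation loop of cell cycle CDKs, had no gene past the threshold by limma, although 2 of 3 were higher at an unadjusted p under 0.05. Its log2 fold changes were 0.37 for CDK7, 0.46 for CCNH and 0.22 for MNAT1 (limma adjusted p = 0.0622, 0.0831 and 0.267). The list on the inhibitory CDK phosphates had 4 of 6 genes lower and none higher, with a median of -0.94. In it the CDK1-inhibiting kinase gene PKMYT1 fell by 1.62 (limma adjusted p = 4.3e-05), and CDC25B, a sister phosphatase of CDC25A, fell by 0.95 (limma adjusted p = 0.000428). CDC25C, the other one, fell by 1.13 (limma adjusted p = 0.000705).

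The list of ubiquitin ligase parts that act on G1 cyclins, CDC25A and p27 also holds the deubiquitinase USP28. Of its 13 genes, 1 was lower, none higher, and the median was -0.21. That gene was CKS1B, a cofactor of the SCF-SKP2 ligase, which fell by 0.80 (limma adjusted p = 0.00534). CUL1 (-0.31) and FBXO31 (-0.29) did not pass.
Of 14 tested transcription factor genes upstream of cyclin D, 4 were lower and none higher, with a median of -0.09. EGR1, an early response factor, fell by 1.41 (limma adjusted p = 0.000347). YAP1, the Hippo pathway coactivator, fell by 1.32 (limma adjusted p = 0.000406), and FOSL1, an AP-1 subunit, fell by 0.72 (limma adjusted p = 0.00265).

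Among cyclins and kinases that act after the G1 set, all 5 tested genes were lower, with a median of -1.01. CDK1 fell by 1.12 (limma adjusted p = 0.000147), CCNB2 by 1.01 (limma adjusted p = 0.000302) and CCNF by 1.00 (limma adjusted p = 0.000531). Of 21 tested genes in the list of other cyclins and CDKs, many of which act in transcription, 1 was lower and 3 were higher, with a median of -0.04. CDK19 of the Mediator kinase module fell by 0.86 (limma adjusted p = 0.00675), whereas CCNG1 (0.52), a p53 target, and CCNY (0.42) rose (limma adjusted p = 0.0271 and 0.0334). The third higher gene, CDK20 (0.53, limma adjusted p = 0.0424), was named after its value was seen. None of these 3 kept its call without control replicate 1, control replicate 3, shOFD1 replicate 1 or shOFD1 replicate 3, and CCNG1 alone did without control replicate 2. Over these the limma adjusted p reached 0.143 for CCNG1, 0.148 for CCNY and 0.191 for CDK20.

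**Figure D4:**
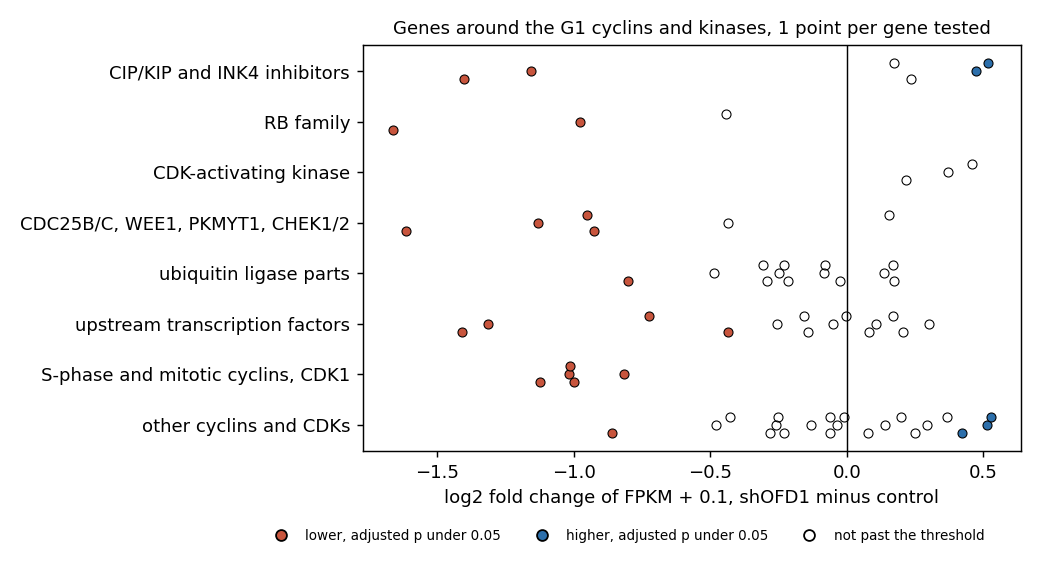
Log2 fold change of FPKM + 0.1, shOFD1 minus control, for the 71 tested genes of 8 lists, 1 point per gene, red for lower and blue for higher at an adjusted p under 0.05 (limma), open for genes that did not pass. The 5 tested S-phase and mitotic genes lie between -1.12 and -0.81, while the 21 other cyclin and CDK genes spread between -0.86 and 0.53.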

How the data were processed

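RNA-seq of 6 samples was analysed, 3 control and 3 shOFD1. By the methods and the submitters' processing notes, paired-end reads of directional libraries were aligned with HISAT2 (version 2.0.5) to GRCh38 (Ensembl), and the authors deposited FPKM per gene from StringTie, whose version and strand setting are not given in the sources used here. Reads of a gene and its antisense partner may thus be mixed. The table holds no counts. Of the low FPKM values of single-exon genes, 21.0% to 23.8% lay on whole multiples of a step within 0.05 step. For each sample the step with the highest share was kept, whereas the 10.0% by spacing alone holds for a fixed step. Reads were thus not recovered and depth is unknown, the kept steps standing for a rough 37800000 to 44200000 fragments. Precision is therefore judged from the replicates alone. The paper calls the expression columns biological replicates, while the labels do not say that samples came from separate cultures, and p-values measure the spread between these samples.

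Genes averaging 1 FPKM or more were compared as log2(FPKM + 0.1) with limma 3.58.1 (R 4.3.3) with a variance trend, two-sided, with Benjamini-Hochberg adjustment and a threshold of 0.05. Sums and ratios were compared by exact permutation. The script was tested on simulated data. Members and lists were chosen with earlier results of these data known. In each list the up to 3 genes of smallest p were named, and for each member the 2 most correlated genes. The shares of CDK6 and CCNE2, and ratios of cyclin sums to other sums or to CDK2, were added after the data were seen. Promoters were read with Python 3.11.15.

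Other settings tried were a pseudocount of 1 or 0.01, dropping the filter or raising it to 5 FPKM, scaling by median of ratios, TPM or quantiles, array weights, a fit lacking the variance trend, a replicate block, and omission of each sample.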

Additional observations from a re-analysis of the deposited data

How the results depend on the processing

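Of 125 recomputed log2 fold changes of the 8 tested members, none changed direction, 102 kept their side of the threshold, 17 lost the call and 6, all of CCND3, gained it. Calls for CCNE2, CDK6 and CDK2 held in every alternative that could test them, and no member was higher past the threshold in any. With no filter, 1083 genes passed, and CCND1 (-0.47, limma adjusted p = 0.0922) and CCNE1 (-0.91) did not. Array weights gave 3956 genes. CCNE1 also missed the threshold with median-of-ratios scaling (-0.86) and quantile normalisation (-0.80). CCND3 passed with a filter at 5 FPKM (-0.44), TPM scaling (-0.59), quantile normalisation (-0.39) and array weights (-0.49). With the replicate block CCND3 passed too (-0.44, limma adjusted p = 0.0451), and 2296 genes and 7 members were called. Deviations of same-numbered samples correlated at 0.06, 0.05 and 0.01, so the numbers were not taken to pair samples. The summed CDK4 and CDK6 mRNA turned to -6.60 FPKM with TPM scaling.

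As single samples were left out, genes called ran from 1138 to 2863 and members called from 3 (without each control sample in turn) to 7. Log2 fold changes ran from -0.53 to -0.43 for CCND1, -0.55 to -0.34 for CCND3, -1.02 to -0.74 for CCNE1 and -0.76 to -0.62 for CDC25A. The change in the CDK4 and CDK6 sum ran from -2.15 to 5.95 FPKM, turning without control replicate 3 (-2.09) or shOFD1 replicate 2 (-2.15), and that in the CCND1 share ran from -0.66 to 0.60 percentage points. The filter at 5 FPKM left CCNE1, CCNE2 and CDC25A untested. The cause of these changes was not tested. Exact permutation cannot pass 0.05 here, so it says nothing on stability.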
